A study of Arabidopsis thaliana with 3 samples.

Results

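The AUX1/LAX, ABCB and PID/WAG genes of Arabidopsis thaliana were examined for peaks of SOB3-GFP, a GFP fusion of an AT-hook protein that represses growth. They were 9 genes fixed by locus among 27444 protein-coding genes on chromosomes 1 to 5: AUX1 (AT2G38120), LAX1 (AT5G01240), LAX2 (AT2G21050), LAX3 (AT1G77690), ABCB1 (AT2G36910), ABCB19 (AT3G28860), PID (AT2G34650), WAG1 (AT1G53700) and WAG2 (AT3G14370). A peak was counted for a gene when its summit, the base of highest ChIP signal, lay in the gene span or within 1000 bp to either side. Gene spans are those of RefSeq for TAIR10.1; its table has no strand column, so the sides of a gene are called lower and higher by coordinate and not upstream and downstream. Peak positions are those of the deposited lists, in TAIR10.

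Auxin moves from cell to cell through carriers in the plasma membrane. AUX1 and its LAX relatives carry auxin into cells with protons, and ABCB1 and ABCB19 are ATP-driven transporters that export it. PID, WAG1 and WAG2 are AGC kinases that phosphorylate the PIN efflux carriers. Directed auxin flow through these proteins shapes organ formation, tropisms and the elongation of stems and petioles.

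Chromatin was taken from whole 14-day-old Col-0 plants with the genotype ProSOB3::SOB3-GFP sob3-4, in which the fusion is driven by the SOB3 promoter in the sob3-4 mutant. Growth was at 22 °C under long days (16 h of light, 8 h of darkness), with harvest at ZT4, which is 4 h after lights-on. An anti-GFP antibody was used in 2 ChIP replicates, each with its own peak list, while 1 input library of the same genotype had no antibody and no file of it was used here. All samples carried the fusion, and no precipitation from plants without it was analysed here. Nothing in the labels tells if the replicates were grown apart, so differences between them may be technical. Whole plants pool all organs, so a peak in few cells and a weak peak in many cannot be told apart.

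In replicate 1 there were 9980 peaks (median fold enrichment 2.58) and in replicate 2 there were 4788 (median 2.47). Fold enrichment is the authors' value, the ChIP signal at the summit over the control signal, as MACS2 writes it. The 1 input library may have been the control of both lists, which no source used here states. An SD over the 2 folds would then not cover error in that control. The lists carry no read totals. The pileup, that is the number of fragments covering the summit, and the control value were therefore solved from the fold and p columns, and single-library intervals below are exact 95% Poisson intervals that cover counting error only.

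Of the 9 genes, 5 had a peak in replicate 1 (AUX1, LAX1, LAX2, ABCB1 and ABCB19), where the rule called 28.7% of all protein-coding genes. Replicate 2 had a peak at 2 of the 9, AUX1 and ABCB19, where it called 13.7% of all genes. The same 2 genes had replicate 1 and replicate 2 peaks that overlapped, against 11.3% of all genes. LAX3, PID, WAG1 and WAG2 had no peak in either list. Window length differed between the genes, since AUX1, LAX1, ABCB1 and ABCB19 belonged to the longest 25% of gene spans. Among genes of that class, from 3030 to 27265 bp, 34.8% were called in replicate 1, 16.2% in replicate 2 and 13.8% with an overlapping pair. The shares rose from the shortest to the longest class and were not matched more closely to ABCB1 (5776 bp) or ABCB19 (7574 bp). With 9 genes and 1 group of samples no test of these counts was made.

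**Figure D1:**
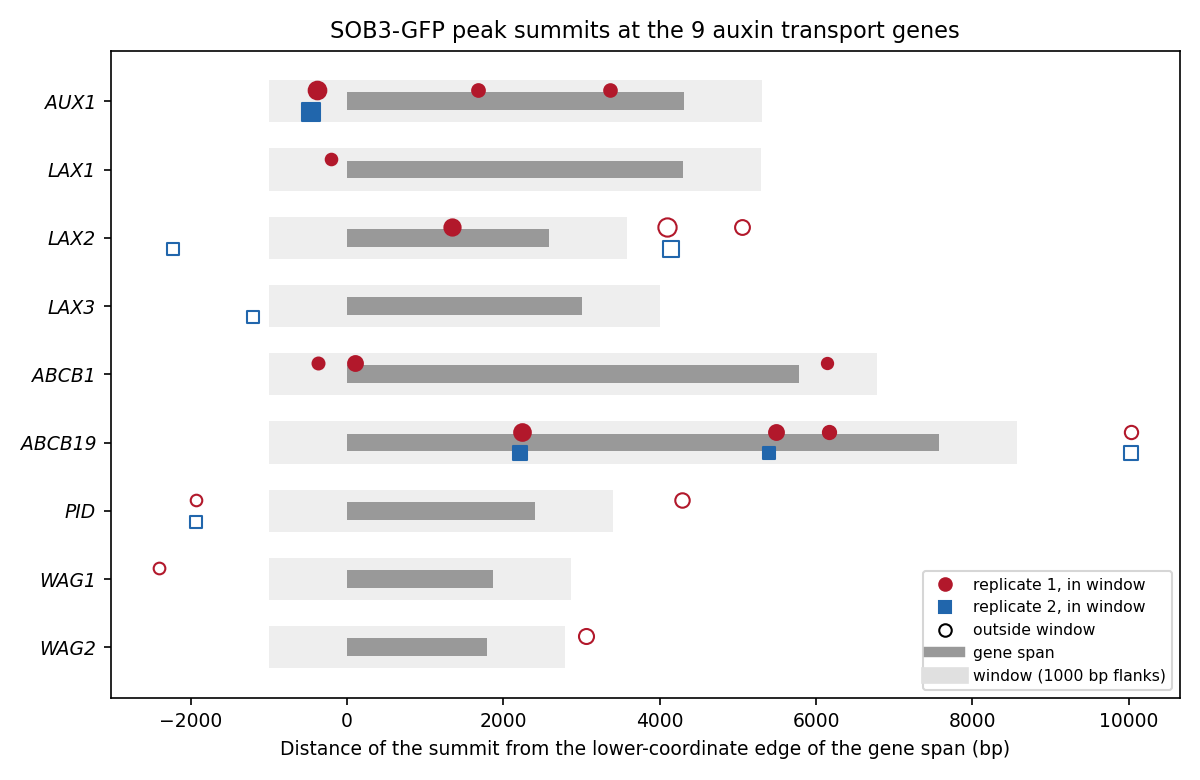
Positions of peak summits along the 9 genes, in bp from the lower-coordinate edge of each gene span, with replicate 1 as circles and replicate 2 as squares, and symbol area growing with fold enrichment. Open symbols lie outside the window. Replicate 1 and replicate 2 summits lie close together 387 and 468 bp outside AUX1 and at 2 places inside ABCB19, and the PID, WAG1 and WAG2 windows are empty.

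AUX1, the main auxin influx carrier, had the highest fold of any summit in the 9 windows in both replicates. With flanks of 2000 bp, or with any part of a peak counted, a replicate 1 peak beside LAX2 was higher (3.70). The leading AUX1 peak covered chromosome 2, 15972227 to 15972741, in replicate 1 and 15972268 to 15972742 in replicate 2. Fold was 3.50 in replicate 1 and 3.32 in replicate 2, with a mean of 3.41 ± 0.13 (SD, n = 2). Both values lay high in their own lists, ranking 1464 of 9980 and 415 of 4788, or above 85.3% and 91.3% of peaks. Replicate 1 gave a −log10 q of 14.8 and replicate 2 one of 11.6. The overlap of 474 bp made up 92.0% of the replicate 1 peak and 99.8% of the replicate 2 peak.

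The AUX1 signal was of like height in both libraries. The summit was covered by 89 fragments in replicate 1 (interval 71.5 to 110) and 73 in replicate 2 (57.2 to 91.8). Scaled to the control as MACS2 does, these were 64.1 (51.5 to 78.9) and 59.9 (47.0 to 75.3), over control values of 17.6 and 17.3. The intervals overlap, but overlap of separate intervals is no test of a difference between the replicates, and none was made. Both summits lay outside the gene on its lower side, 387 bp from the edge in replicate 1 and 468 bp in replicate 2, and no other annotated gene lay within 1000 bp of them.

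AUX1 had further peaks inside the gene, in replicate 1 only. They covered 15974429 to 15974644 and 15976122 to 15976492 on chromosome 2, with folds of 2.11 and 2.08. Both were weak for that list, above 15.8% and 14.0% of its peaks, with a −log10 q of 3.28 and 3.86. Their scaled pileups were 37.4 (28.0 to 49.1) and 46.8 (36.1 to 59.7), over control values of 17.3 and 22.0. At control values within 1 of these, replicate 2 peaks went down to folds of 1.82 and 1.68. The lack of replicate 2 peaks here alone does not show a difference between the replicates.

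The AUX1 paralogs had weaker or unpaired signal. LAX1, an influx carrier, had a single replicate 1 peak on chromosome 5 at 97259 to 97489, 204 bp outside its lower edge, with a fold of 1.82 and a −log10 q of 1.88. This is close to the lower end of the list, above 3.10% of peaks, and its summit lay inside AT5G00745, an annotated long non-coding RNA beside LAX1. Among the 1145 replicate 2 peaks whose control value was within 1 of that at LAX1, the lowest fold was 1.81. A replicate 2 signal as strong as that of replicate 1 would thus have stood at the limit of that list, and the absence of a replicate 2 peak does not show a difference.

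LAX2, which acts in leaf vein formation, had a stronger replicate 1 peak inside the gene, on chromosome 2 at 9035245 to 9035688. Its fold was 3.07, above 74.0% of replicate 1 peaks, with 70 fragments (54.6 to 88.4) at the summit and a control value of 15.7. Replicate 2 had no peak there, and its list held peaks at like control values down to a fold of 1.91. Over the 2643 overlapping pairs at protein-coding genes, the 90th percentile of the replicate 1 to replicate 2 fold ratio was 1.76. The upper quartile was 1.44. These pairs hold only loci called in both lists, so they do not give the scatter where replicate 2 had no peak. The missing peak alone does not show a difference between the replicates, which was not tested. LAX3, the influx carrier known from lateral root emergence, had no peak in its window in either list.

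Of the ABCB exporters, ABCB19 was the only one of the 2 with peaks in both replicates. ABCB19 carries auxin down the stem and has been studied for its part in hypocotyl growth and bending. Its leading peak covered chromosome 3, 10871995 to 10872440, in replicate 1 with a fold of 3.20, and 10872085 to 10872378 in replicate 2 with a fold of 2.23. The mean was 2.71 ± 0.68 (SD, n = 2), a wider spread than at AUX1. The summits were 25 bp apart, 2238 and 2213 bp inside the lower edge of the gene.

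A further ABCB19 pair lay at 10875269 to 10875617 in replicate 1 and 10875329 to 10875612 in replicate 2, with folds of 2.67 and 2.19 and summits 80 bp apart. These summits were 2091 and 2171 bp inside the higher edge. In replicate 2 both ABCB19 peaks were weak, above 27.1% and 23.4% of the list, with a −log10 q of 3.58 and 3.52. A replicate 1 peak at 10875988 to 10876284 with a fold of 2.24 had no partner.

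ABCB19 signal was higher in replicate 1 at both pairs. At the leading pair the scaled pileup was 58.3 (46.3 to 72.5) in replicate 1 and 39.4 (29.0 to 52.2) in replicate 2, over control values of 17.6 and 17.1. At the further pair it was 50.4 (39.3 to 63.7) and 40.2 (29.8 to 53.2), over 18.3 and 17.9. The intervals overlapped at both, which does not show that the replicates were alike, and the difference was not tested. The ratio of replicate 1 to replicate 2 fold was 1.43 and 1.22 at the ABCB19 pairs and 1.05 at AUX1, set beside a median of 1.16 (quartiles 0.978 and 1.44) over the 2643 overlapping pairs at protein-coding genes.

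ABCB1, a close relative of ABCB19, had 3 replicate 1 peaks and no replicate 2 peak. The strongest, on chromosome 2 at 15501706 to 15502081, had its summit 104 bp inside the lower edge of the gene, a fold of 2.67 and a −log10 q of 7.27. Replicate 2 held peaks at like control values down to a fold of 1.81, but as at LAX2 a missing peak alone does not show a difference. The others lay 378 bp outside the lower edge, at 15501328 to 15501596 (fold 1.92), and 360 bp outside the higher edge, at 15507606 to 15508004 (fold 1.75). Both of these ranked low, above 6.13% and 1.66% of replicate 1 peaks, and the summit of the last was also 937 bp from the neighbouring gene AT2G36920.

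**Figure D2:**
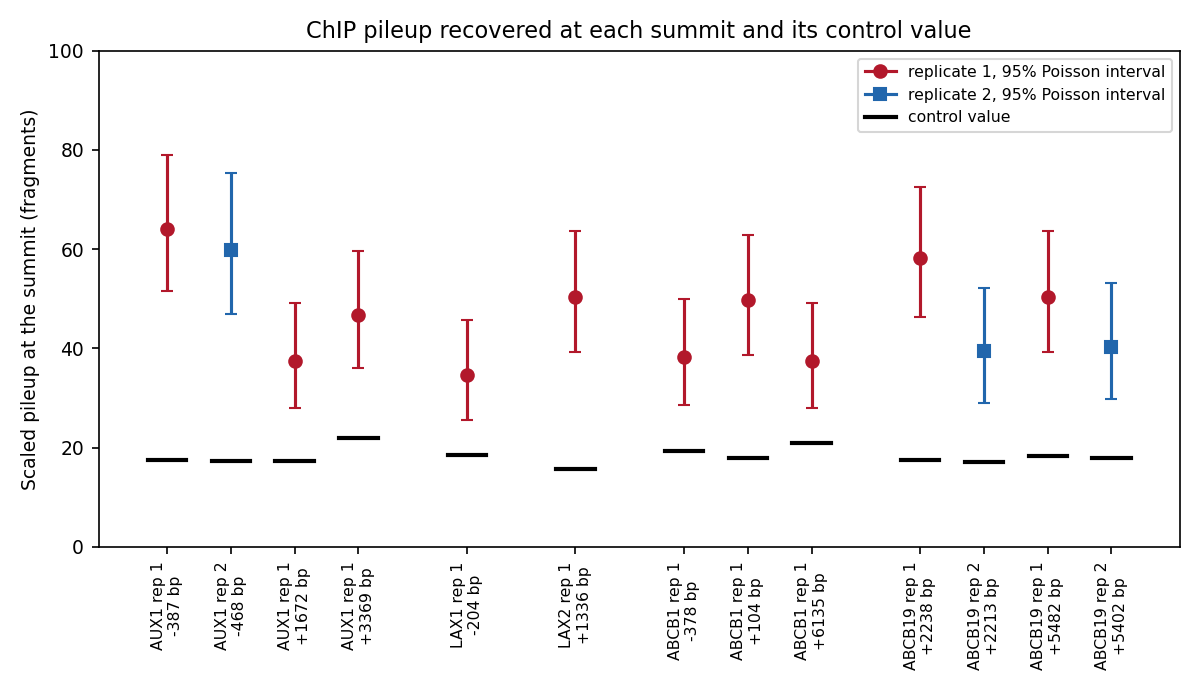
Scaled number of fragments covering the summit of each peak in the windows, with exact 95% Poisson intervals (circles, replicate 1; squares, replicate 2) and the control value as a bar; labels give the distance of the summit from the lower edge of the gene. The AUX1 summits outside the gene stand at 64.1 and 59.9 over control values of 17.6 and 17.3. The ABCB19 peak at 10875988 is left out because its pileup had more than 1 solution.

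The kinase genes had none of these peaks. PID, WAG1 and WAG2 had spans of 2405, 1861 and 1785 bp, and LAX2, with a peak in replicate 1 only, had 2581 bp. Among genes in the length class of PID and LAX2, 31.7% were called in replicate 1 and 12.0% with a pair. In the class of WAG1 and WAG2 these shares were 27.4% and 10.6%. Most genes of these lengths thus had no peak, and a link of gene length with the lack of kinase peaks was not tested. The nearest peaks lay outside the window in each case. WAG2 had a replicate 1 peak 1271 bp beyond its higher edge (chromosome 3, 4800580 to 4801035, fold 2.74). It counted for WAG2 with any part of a peak in the window (30.6% of all genes called in replicate 1). With flanks of 2000 bp it also counted (37.3% called). WAG1 had a replicate 1 peak 2404 bp beyond its lower edge, with a fold of 1.86. PID had overlapping peaks of both replicates on its lower side, on chromosome 2 between 14587682 and 14588093, with summits 1937 and 1927 bp away and folds of 1.83 and 1.96, and a replicate 1 peak with a fold of 2.58 on its higher side 1884 bp away.

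The 1000 bp limit also kept out peaks near LAX2, ABCB19 and LAX3. A pair of overlapping peaks lay beyond the higher edge of LAX2 on chromosome 2, between 9037629 and 9038426. Fold there was 3.70 in replicate 1 and 2.79 in replicate 2, higher than inside LAX2, with summits 1517 and 1561 bp from the gene. GRP2B (AT2G21060), the next gene on that side, lay between them and LAX2, and the replicate 1 summit was 371 bp from it. Beyond ABCB19 a further overlapping pair lay 2452 bp (replicate 1, fold 2.27) and 2457 bp (replicate 2, fold 2.67) from its higher edge, where the pseudogene AT3G28865 was 138 bp from the replicate 1 summit. LAX3 had a replicate 2 peak 1199 bp beyond its lower edge, with a fold of 1.98. The counted summits outside genes were all well inside the limit, with distances of 204 to 387 bp in replicate 1 and 468 bp in replicate 2.

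Peaks of these genes lay inside the gene span in 7 of 11 cases in replicate 1 and 2 of 3 in replicate 2. Over all protein-coding genes, 23.8% of gene and peak pairings in replicate 1 and 19.9% in replicate 2 had the summit inside the span. The inside peaks came from AUX1, LAX2, ABCB1 and ABCB19, 3 of them from ABCB19 alone in replicate 1, and 5 of the 7 were more than 1000 bp from either edge. The spans of AUX1, ABCB1 and ABCB19 are long (4305, 5776 and 7574 bp), so more of their windows lies inside the gene than in short genes. The shares over all genes were not matched for length, and they count a peak once for each gene in reach. They are therefore no like-for-like measure of a preference for gene bodies. Peaks of 1 gene are not independent, and this was not tested.

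**Figure D3:**
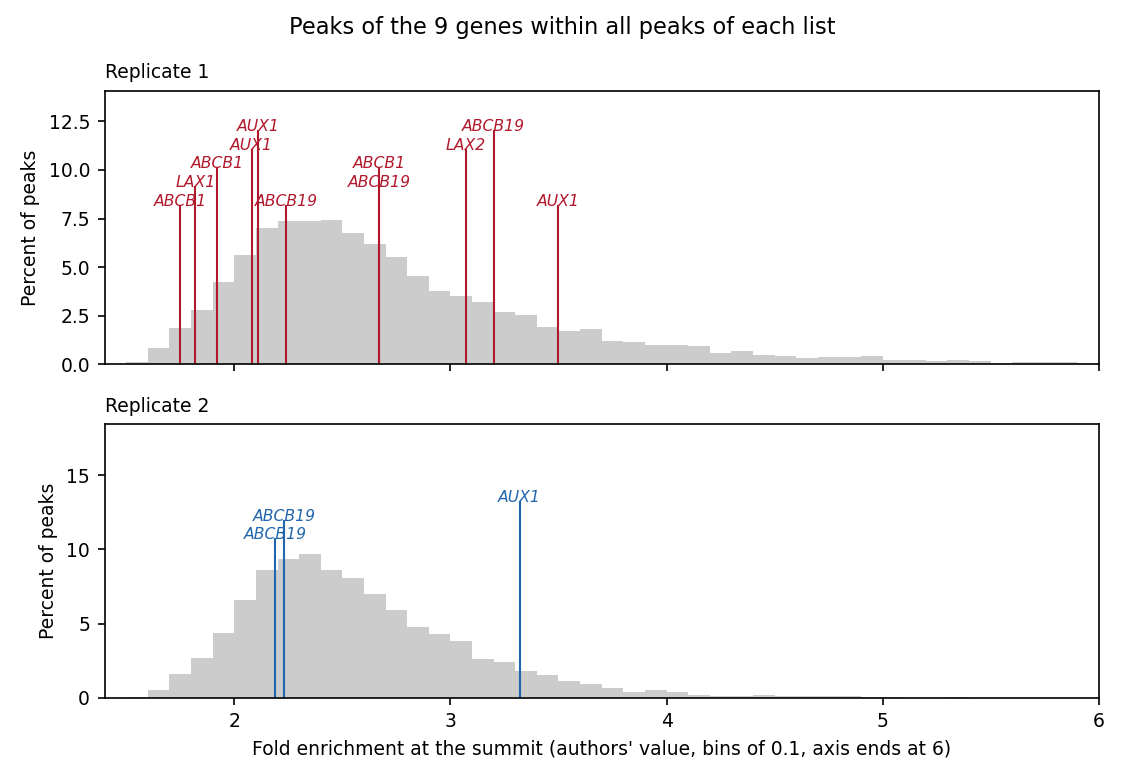
Distribution of fold enrichment over all peaks of each list (grey bars, percent of peaks in bins of 0.1) with the peaks of the 9 genes marked by lines. In replicate 1 the 11 peaks run from 1.75 to 3.50 with a median of 2.24, and an AUX1 line is the farthest right of the marked lines in both panels.

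The folds of the 11 replicate 1 peaks ran from 1.75 to 3.50 with a median of 2.24, below the median of 2.58 of that list. Of these, 5 were above the list's median and 1, at AUX1, was in its highest 20%. In replicate 2 only the AUX1 peak was above its list's median.

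Other genes of auxin transport gave a wider frame. The genes analysed here were 39: PIN and PILS carriers, further ABCB genes, AGC kinases, PP2A subunits, NPY genes and factors of carrier trafficking. Of these, 17 (43.6%, against 28.7% of all protein-coding genes) had a peak in replicate 1 and 5 (12.8%, against 11.3%) had overlapping peaks in both, a share near that of all genes. The 5 were PIN3, PIN7 and PIN8 among the 7 PIN carriers analysed, with NPY3 and WAT1. NPY3 is of a family that acts with PID in organ formation, and WAT1 is an auxin transporter of the vacuole membrane. The difference between these groups was not tested.

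The PIN pairs were in part stronger than AUX1. PIN3 had folds of 4.54 in replicate 1 and 3.93 in replicate 2 at its best pair, PIN7 4.79 and 2.67, and PIN8 4.25 and 2.74. By the lower fold of both replicates AUX1 (3.32) stood below PIN3 (3.93) and above WAT1 (2.82). None of 7 PILS genes, 6 further ABCB genes or 6 AGC kinases had an overlapping pair, in groups so small that the 11.3% of all genes with a pair comes to less than 1 gene each. In replicate 1, where 28.7% of all genes were called, 1 PILS gene, 1 ABCB gene and 3 of the kinases had a peak, among them D6PK, a kinase that activates PIN carriers, with a fold of 3.53.

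By the distance of log2 fold over the 2 replicates, the listed gene most like AUX1 was WAT1 (3.43 and 2.82, distance 0.24), and the gene most like ABCB19 was NPY3 (2.74 and 2.40, distance 0.25). Only the 5 listed genes with an overlapping pair could be chosen.

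**Figure D4:**
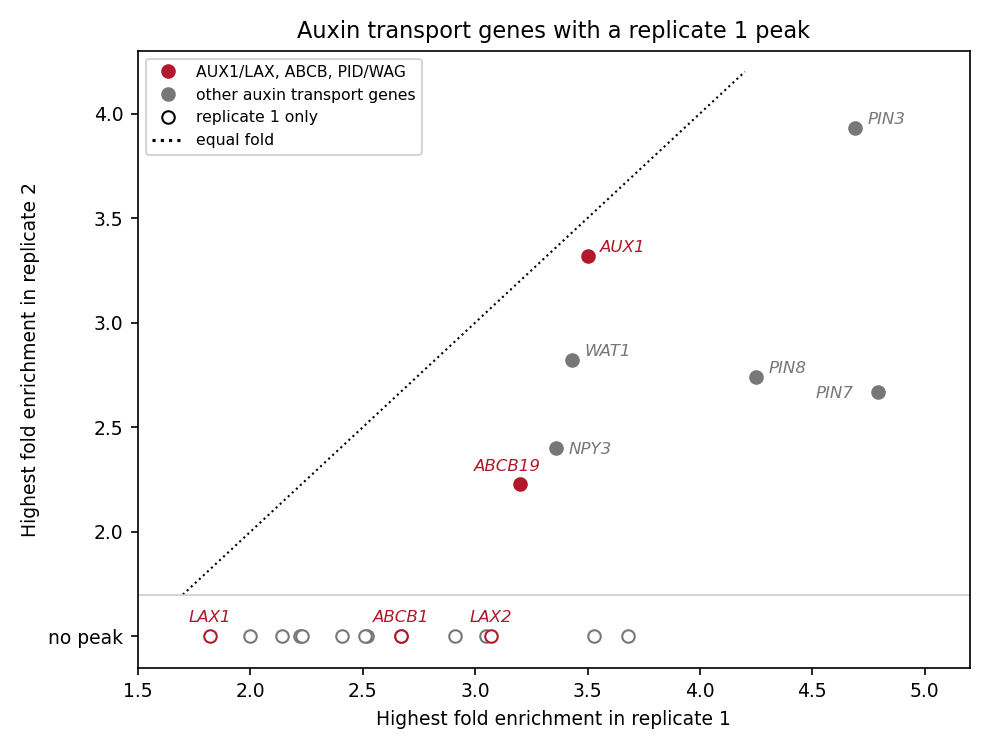
Highest fold enrichment per gene in replicate 1 (x axis) and replicate 2 (y axis) for auxin transport genes with a replicate 1 peak; open circles in the bottom row had no replicate 2 peak, and the dotted line marks equal fold. AUX1 lies near the line at 3.50 and 3.32, ABCB19 lies below it at 3.20 and 2.23, and LAX1, LAX2 and ABCB1 are in the bottom row. The values of a gene come from overlapping peaks at AUX1 and ABCB19 but need not elsewhere. At NPY3 the highest replicate 1 fold is 3.36, while its overlapping pair has 2.74 in replicate 1.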

How the data were processed

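SOB3-GFP ChIP-seq peak lists of 2 replicates were used. Per the submitters' processing notes, reads went through bcl2fastq, Bowtie 0.12.9, the TAIR10 build and MACS2; no source used here gives the MACS2 version, control or threshold. Peak names number each list separately, so peaks were called per replicate. The deposited fold is a linear ratio to the control value, and MACS2 also wrote the deposited −log10 p and −log10 q values (lowest −log10 q 1.33 in replicate 1, 1.30 in replicate 2). The deposited score column repeats −log10 q and was not used further; the deposited summit offset gave the summits.

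Genes were taken from RefSeq TAIR10.1, whose nuclear coordinates are assumed to equal those of TAIR10. No genome sequence was used here. Peaks were paired when they overlapped by at least 1 bp. Summit pileups were solved from the MACS2 formulas for fold and Poisson p; they were whole multiples (within 0.02) of 0.720 in replicate 1 and 0.821 in replicate 2, with exactly 1 such solution for 91.6% and 96.5% of peaks. Peaks with more were given no pileup. The method was tested on simulated data. Depth per library is otherwise unknown.

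With 1 group, no test was made; counts stand beside the share of all protein-coding genes called by the same rule. Of 40 other auxin transport loci, 1 whose symbol was not in the table was dropped, which left 39; a planned gene outside these 40 is not reported here. Named genes are the 9 genes, genes sharing their peaks, up to 10 listed genes with a pair, and the nearest listed gene by fold; D6PK and GRP2B were named after their values were seen. The planned promoter motif and protein comparisons were not run. Genes and lists were chosen with earlier results of these data known. Alternatives covered flanks, overlap, −log10 q and equal list length. Scripts used Python 3.11.15, numpy 2.4.6, pandas 2.3.3, scipy 1.17.1 and matplotlib 3.10.9.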

Additional observations from a re-analysis of the deposited data

How the results depend on the processing

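AUX1 had an overlapping pair under every setting that kept both replicates, and ABCB19 under all of these but the thresholds on −log10 q. With −log10 q of at least 5, replicate 2 had a peak at 1 of the 9 genes (8.49% of all genes) and 1, AUX1, had a pair (6.85%). With −log10 q of at least 10, replicate 1 had peaks at 2 genes (10.4% of all genes), replicate 2 at 1 (2.39%), and 1 had a pair (1.82%), as did 1 of the 39 other auxin transport genes. With flanks of 2000 bp, replicate 2 had peaks at 5 genes (19.1% of all genes) and 4 had a pair, namely AUX1, ABCB19, LAX2 and PID, where 16.0% of all genes had a pair. With the 4000 peaks of highest −log10 q in each list, replicate 1 had peaks at 3 genes (12.5% of all genes). With a replicate left out, genes with a peak in the other list were counted, and no longer pairs. Replicate 1 alone gave 5 of the 9 genes and 17 of the 39 others, where 28.7% of all genes were called. Replicate 2 alone gave 2 of the 9 and 5 of the 39, where 13.7% of all genes were called. The other 23 counts stayed within 1.5 times the reported ones, and the 21 alternative values of highest fold moved by no more than the spread between replicates or the counting interval, though the order in replicate 1 turned with flanks of 2000 bp and with any part of the peak, where LAX2 (3.70) stood above AUX1 (3.50). No paired analysis was possible because the peak lists come from 1 group and no test was made. The LAX1 peak (fold 1.82) and the ABCB1 peak of fold 1.75 stood at the lowest replicate 2 fold at like control values (1.81 and 1.76). The lack of a replicate 2 peak at these thus does not show a difference between the replicates.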
